A study of Homo sapiens with 3 samples.

Results

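The histone cluster genes are the 71 rows, of 58302 in the deposited gene table, that are annotated as protein coding and whose symbol begins with HIST1H, HIST2H, HIST3H or HIST4H. The rule used symbol and gene type and no measured value, but it was set with earlier results of these data known. By type they hold 6 linker histone (H1), 17 H2A, 18 H2B, 15 H3 and 15 H4 genes. By location 55 belong to the HIST1 cluster on chromosome 6, 12 to HIST2 and 3 to HIST3 on chromosome 1, and 1, HIST4H4, lies on chromosome 12 (GRCh38).

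The cells were HCT116, a long-established line from a human colorectal cancer, and their RNA was sequenced. Cells that the series calls low in DUOX2, one of the NADPH oxidases and a source of hydrogen peroxide, received 1 of 2 small interfering RNAs (siRNA 1 or siRNA 2). The cells labelled NC received a control siRNA. Each of the 3 had a single library, and the labels do not say whether the libraries came from separate cultures. Any p-value here rests on the spread between the siRNA 1 and siRNA 2 libraries, which may be technical and also holds differences between the siRNA sequences. All cells shared the line and a transfected siRNA, and no untransfected cells are among the samples analysed here.

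Library totals were 19130768 counts (siRNA 1), 18832672 (siRNA 2) and 17589502 (NC). DUOX2 (ENSG00000140279) had 2 counts with siRNA 1, 0 with siRNA 2 and 2 in NC, all under the floor of 3 counts (0.157 CPM with siRNA 1, 0.159 CPM with siRNA 2 and 0.171 CPM in NC), so a lower DUOX2 level was not detectable at this depth. CPM is the count scaled to a fixed total per library. The extraction text in the labels speaks of retinas, so tissue markers were checked. Of 11 colorectal epithelial markers 8 had a count above 0 with siRNA 1, 8 with siRNA 2 and 9 in NC. They summed to 3280 CPM, 4870 CPM and 5350 CPM in the same order of libraries, with CDX1 and CEACAM5 at 0. LGR5 (2, 0 and 3 counts) and KRT20 (0, 4 and 2 counts) lay near or under the floor. Of 10 retinal markers 7 were at 0 in every library, and the rest summed to 4.81 CPM with siRNA 1, 6.11 CPM with siRNA 2 and 8.53 CPM in NC. Of 10 fibroblast, endothelial and leukocyte markers 5 were at 0 everywhere, and the rest summed to 3.35 CPM with siRNA 1, 4.3 CPM with siRNA 2 and 5.69 CPM in NC.

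As background, DNA wraps around octamers of the core histones H2A, H2B, H3 and H4, and H1 binds the linker DNA between them. Most genes of the HIST clusters are replication dependent: they are transcribed mainly in S phase, lack introns, and their messages end just after a stem-loop bound by SLBP instead of in a poly(A) tail. Some of them also give polyadenylated messages that run past the stem-loop. The library kit named in the labels is sold for oligo-dT selection of poly(A) RNA, and whether that selection was used here is not stated.

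The promoter bases of 4 members are shown because they were among the most abundant and lay on both sides of NC: HIST1H2BK and HIST1H1C had lower scaled counts with both siRNAs, HIST2H2BE and HIST1H2AC higher. For HIST1H1C this did not hold with siRNA 2 once the GC trend was removed. Each line gives the 140 bases before the RefSeq start site (GRCh38.p14), and capitals mark matches to any of 4 motifs on either strand. The octamer ATTTGCAT is a site of POU-domain factors known from H2B promoters. The other motifs are the TATA box with the letters TATAAA, the CCAAT box, and the H1 box of linker histone genes with the letters AAACACA.
HIST1H2BK, chr6:27146856-27146995, minus strand: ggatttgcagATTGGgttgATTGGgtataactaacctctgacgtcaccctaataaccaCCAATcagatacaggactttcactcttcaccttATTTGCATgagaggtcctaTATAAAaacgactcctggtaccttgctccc
HIST1H1C, chr6:26056471-26056610, minus strand: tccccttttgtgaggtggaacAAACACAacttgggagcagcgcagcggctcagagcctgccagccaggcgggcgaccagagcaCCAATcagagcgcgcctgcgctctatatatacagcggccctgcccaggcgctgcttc
HIST2H2BE, chr1:149886683-149886822, minus strand: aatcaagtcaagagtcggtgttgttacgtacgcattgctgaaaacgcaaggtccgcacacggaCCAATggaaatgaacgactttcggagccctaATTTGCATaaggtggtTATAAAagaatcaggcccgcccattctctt
HIST1H2AC, chr6:26124032-26124171, plus strand: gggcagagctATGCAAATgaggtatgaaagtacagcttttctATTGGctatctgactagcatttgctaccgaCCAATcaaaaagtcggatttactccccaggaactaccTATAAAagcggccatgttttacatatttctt

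RefSeq promoters were matched for 65 members, and the 250 bases before the start were searched on both strands, with overlaps between motifs allowed. The octamer was found in 11 of 16 H2A and 13 of 17 H2B promoters and in none of the matched H1, H3 and H4 promoters, against 1.66% of 27305 RefSeq promoters. Head-to-head H2A and H2B genes lie 218 to 330 bases apart, so their searched bases overlap and a match can count for both partners. Counts of any motif in these genes are therefore not counts of independent promoters. The H1 box was found in 6 of 6 H1 promoters and in no other member, against 4.95% of all promoters. TATAAA stood in 44 of 65 members against 11.1% of all promoters, and CCAAT in 55 of 65 against 33.0%. HIST1H2BK, lower with both siRNAs, and HIST2H2BE, higher with both, each held the octamer, TATAAA and CCAAT in the bases printed. A match describes letters and is not evidence of a bound factor.

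The stem-loop is shown because the gene models differ in whether they hold it and in how far they run past it. The extent of a model decides which reads could be counted. The motif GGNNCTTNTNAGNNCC was searched on the sense strand of GENCODE 29 transcripts. In the members only coding transcripts were searched, after the last coding base. It was found in 32 members, 25 to 70 bases after that base. Anywhere in their longest transcript, 102 of 19922 protein-coding genes held it (0.51%), 29 of them members. Capitals mark the stem arms.
HIST2H2BE, HIST1H2AC, HIST3H2A, HIST2H2AA3 and HIST2H2AA4: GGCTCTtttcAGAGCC
HIST1H2BC and HIST1H2BD: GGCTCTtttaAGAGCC
HIST4H4 and HIST1H4H: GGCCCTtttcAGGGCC
HIST2H4A and HIST2H4B: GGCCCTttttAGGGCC

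All 8 H4 members with the site had a GGCCCT stem, and the 24 members of other types had GGCTCT. The models differed in how far they run past it: 1729 bases in HIST2H2BE, 1510 in HIST4H4 and 1128 in HIST1H2AC, but 35 in HIST2H2AA3 and in HIST2H2AA4. In 39 members no annotated coding transcript held the motif after its coding sequence. In 35 of these the coding models end at the stop codon, HIST1H2BK and HIST1H1C among them. Reads from sequence beyond such a model could not be counted to the gene.

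Few members carried most of the counts. Of the 71, 11 had no count in any library, 29 reached at most 9 counts in their best library, 14 reached 10 to 49, and 17 reached 50 or more. The 31 members with at least 10 counts were all in the test. Detection differed by type: 12 of 18 H2B, 8 of 17 H2A, 6 of 15 H4, 3 of 15 H3 and 2 of 6 H1 genes reached 10 counts. Genes at or near 0 included HIST1H4C with 1 count with siRNA 1, 4 with siRNA 2 and 0 in NC, and HIST1H3B with 1, 1 and 3 in the same libraries. The 11 at 0 in all were HIST1H1A, HIST1H2AA, HIST1H2AB, HIST1H2BA, HIST1H4F, HIST1H4G, HIST1H4L, HIST2H3C, HIST2H3D, HIST2H3PS2 and HIST3H3. A count of 0 limits the level only to below the floor given above.

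The 71 genes together had 3257 counts with siRNA 1, 3255 with siRNA 2 and 3685 in NC. These are 170 CPM (95% Poisson interval 164 to 176) with siRNA 1, 173 CPM (167 to 179) with siRNA 2 and 209 CPM (203 to 216) in NC, where intervals cover counting error only. Scaled with TMM factors, the sum was 0.895 of NC (0.854 to 0.939) with siRNA 1 and 0.86 (0.82 to 0.902) with siRNA 2. One gene, HIST1H2BK, held 13.8% of the counts with siRNA 1, 15.1% with siRNA 2 and 26.8% in NC. Without it the other 70 genes summed to 2807, 2765 and 2699 counts, a ratio to NC of 1.05 with siRNA 1 and 0.998 with siRNA 2. For a lower value in these bulk libraries, fewer cells in S phase, less histone RNA per cell and library composition cannot be told apart.

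**Figure D1:**
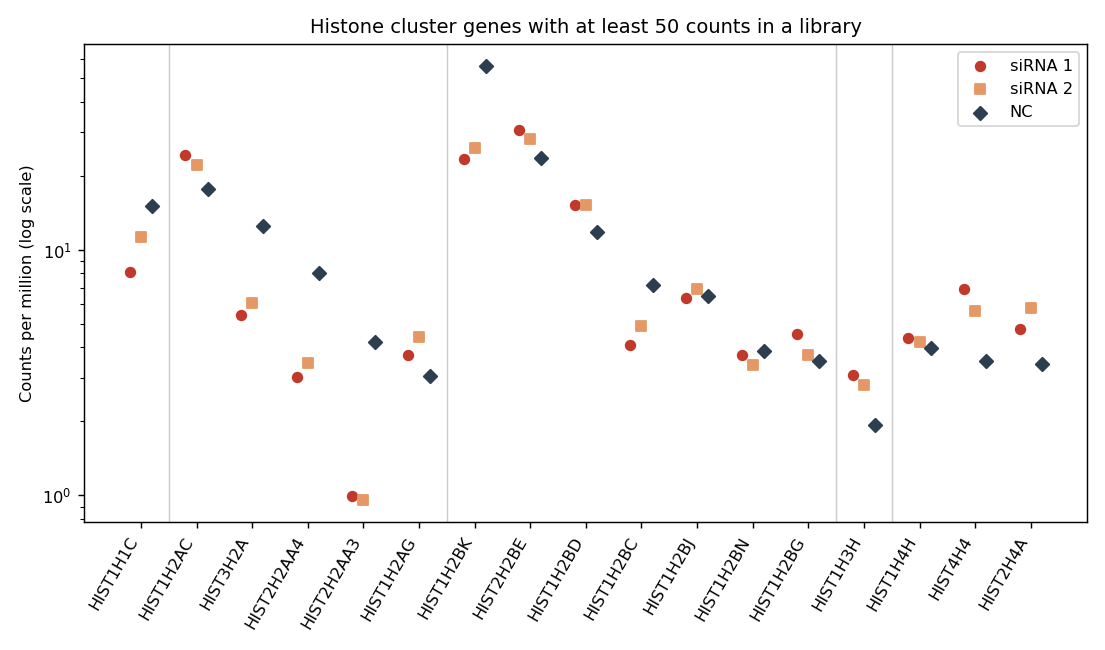
CPM (log scale) of the 17 histone cluster genes with at least 50 counts in a library, with siRNA 1, siRNA 2 and NC as separate points and 1 library each; grey lines separate the types H1, H2A, H2B, H3 and H4. HIST1H2BK stands at 23.5 and 26.0 CPM in the siRNA libraries against 56.1 CPM in NC, while HIST2H2BE and HIST1H2AC lie above NC.

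The types did not move together. Summed H1 was 8.94 CPM with siRNA 1 and 12.4 CPM with siRNA 2, against 16.5 CPM in NC. H2A summed to 39.7 and 39.9 CPM in the siRNA libraries against 50.4 CPM in NC, and H2B to 94.0 and 94.4 CPM against 121 CPM in NC. The H2B difference rested on HIST1H2BK: the other 17 H2B genes summed to 70.5 CPM with siRNA 1 and 68.3 CPM with siRNA 2 against 65.4 CPM in NC, so the direction turned. Without HIST1H2AC, its most abundant gene in NC, H2A summed to 15.4 and 17.7 CPM in the siRNA libraries against 32.7 CPM in NC. The H3 and H4 sums lay the other way. H3 was at 7.42 and 6.48 CPM in the siRNA libraries against 5.12 CPM in NC. H4 was at 20.2 and 19.7 CPM against 16 CPM in NC, but its genes were split. Of 6 H4 genes with at least 10 counts, 3 were higher with both siRNAs and 2 lower with both. Those furthest above NC were HIST4H4 (6.95 and 5.63 CPM against 3.52 CPM) and HIST2H4A (4.76 and 5.79 CPM against 3.41 CPM). The H3 sum rests on few counts, 142 with siRNA 1, 122 with siRNA 2 and 90 in NC, and its interval for siRNA 2 over NC (0.997 to 1.75) includes 1. The types also differed in GC content: over members with at least 10 counts its median was 58.8% for H1 and 59.7% for H2A. For H2B it was 47.5%, for H3 44.1% and for H4 46.7%. With the GC trend removed, the median log2 fold change went from -0.58 to 0.03 for H1 and from -0.67 to -0.13 for H2A. It went from -0.16 to -0.22 for H2B, from 0.68 to 0.57 for H3 and from -0.0 to 0.27 for H4. Sums by type and cluster were not tested, as each library stands alone.

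**Figure D2:**
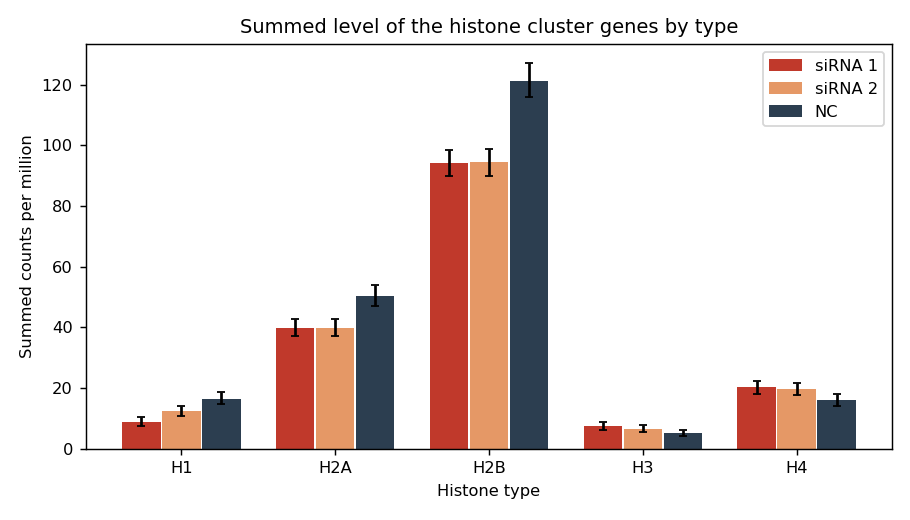
Summed CPM of the histone cluster genes by type (bars: siRNA 1, siRNA 2 and NC, 1 library each; error bars: 95% Poisson intervals, counting error only). H1, H2A and H2B lie lower in both siRNA libraries than in NC, while H3 and H4 lie higher. The H2B bars, at 94.0 and 94.4 against 121, turn to 70.5 and 68.3 against 65.4 without HIST1H2BK. Of 6 H4 genes with at least 10 counts, 3 were higher than NC with both siRNAs and 2 lower with both. The sums are not adjusted for GC content, in which the types differ.

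No member passed the test of both siRNA libraries against NC (edgeR's quasi-likelihood test, Benjamini-Hochberg adjustment over 17263 genes), in which 10 genes, 0.0579% of those tested, passed at 0.05. The smallest adjusted p of a member was 0.112. At an unadjusted p under 0.05, 1 of 31 members was higher (HIST4H4) against 11.5% of all genes tested, and 6 were lower against 14.5%: HIST1H2BK, HIST3H2A, HIST2H2AA4, HIST2H2AA3, HIST2H2BF and HIST1H2AD. DESeq2 called 567 genes, 5.54% of those with an adjusted p. It gave an adjusted p to 5 members and called 1, HIST1H2BK (adjusted p = 0.0373).

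By size alone, 4 of 31 members were at least 2-fold lower with both siRNAs (HIST1H2BK, HIST2H2AA4, HIST2H2AA3 and HIST1H2AD) and 0 were at least 2-fold higher. Over all genes with 10 counts these shares were 5.14% lower and 4.02% higher. With siRNA 1 alone 8 members were 2-fold from NC, with siRNA 2 alone 5, and once the trend on GC content was removed 0 remained 2-fold with both. The median log2 fold change (log2 CPM, prior count 2) of the 31 members was 0.02 with siRNA 1 and -0.12 with siRNA 2, and 0.02 and -0.01 over all genes. The median of the members' means over both siRNAs was -0.21, against 0.0 for all genes. Both comparisons share the NC library, so a high or low count in NC enters both values of a gene.

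**Figure D3:**
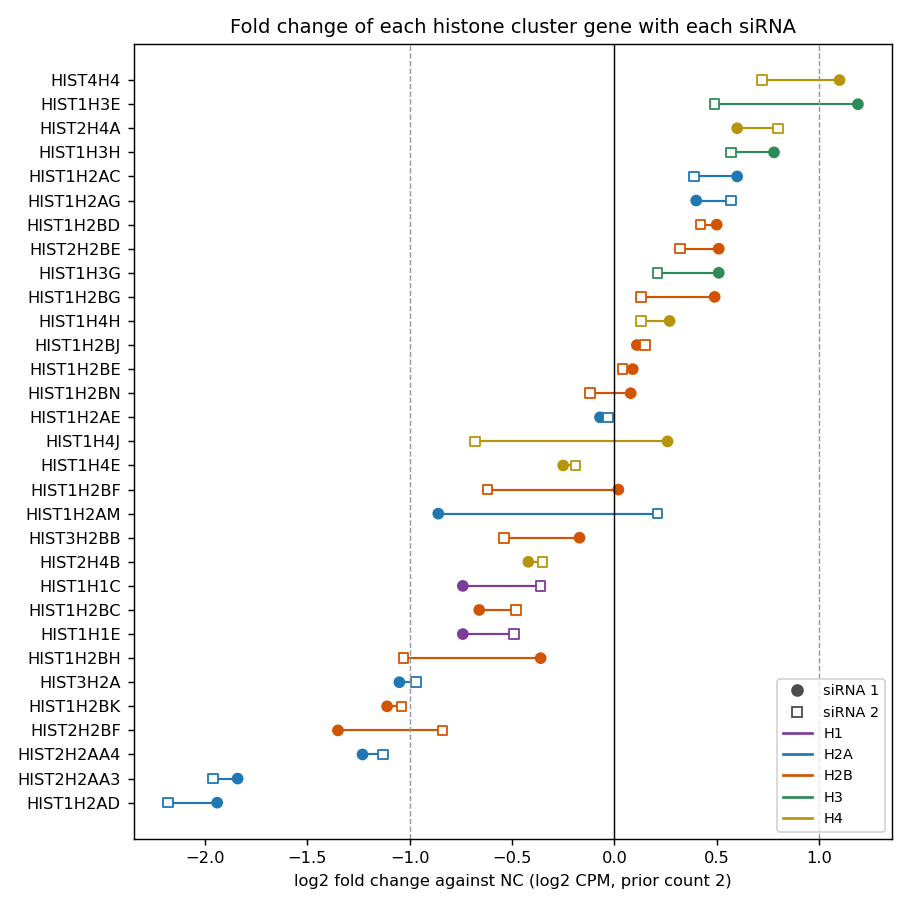
Log2 fold change against NC (log2 CPM, prior count 2) of the 31 histone cluster genes with at least 10 counts in a library; filled circles are siRNA 1, open squares siRNA 2, colours the histone types, and dashed lines mark a 2-fold difference. HIST1H2AD, HIST2H2AA3, HIST2H2AA4 and HIST1H2BK lie beyond 2-fold below NC with both siRNAs, and no gene lies beyond 2-fold above NC with both.

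Among linker histones 1 gene was well measured. HIST1H1C (chr6:26055787-26056428), a linker subtype common in somatic cells, had 156 counts with siRNA 1 and 213 with siRNA 2 against 266 in NC. Both siRNA libraries were lower than NC, and the libraries with the siRNAs also differed from each other, with log2 fold changes of -0.74 and -0.36 (adjusted p = 0.285 in edgeR). With the GC trend removed these were -0.15 and 0.1, so the siRNA 2 value turned direction. HIST1H1E, another somatic linker subtype, had 11 and 14 counts in the siRNA libraries against 20 in NC.

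H2A genes held the lowest members and also genes above NC. HIST2H2AA3 (chr1:149842188-149842736) and HIST2H2AA4 (chr1:149851061-149851624) encode H2A at near-identical loci that share 100% and 97.1% of their 50-base words with each other or with other genes, so their split is uncertain. HIST2H2AA3 had 19 and 18 counts with siRNA 1 and siRNA 2 against 74 in NC, and HIST2H2AA4 58 and 65 against 141 in NC. Summed, the pair had 77 and 83 counts against 215 in NC, a TMM-scaled ratio of 0.363 (0.276 to 0.473) with siRNA 1 and 0.376 (0.288 to 0.487) with siRNA 2. The edgeR fold changes were -2.0 ± 0.38 (SE, log2) for HIST2H2AA3 with an adjusted p of 0.112 and -1.21 ± 0.32 for HIST2H2AA4 with an adjusted p of 0.127. After removal of the GC trend the log2 fold changes with siRNA 1 and siRNA 2 were -0.93 and -1.27 for HIST2H2AA3. For HIST2H2AA4 they were -0.33 and -0.44.

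HIST3H2A (chr1:228456979-228457873), an H2A gene outside the large clusters, had 104 and 114 counts in the siRNA libraries against 220 in NC (edgeR log2 fold change -1.02 ± 0.28 SE, adjusted p = 0.129). HIST1H2AD, with 6 and 5 counts against 29 in NC, shares 98% of its words with the unnamed gene AL031777.3 and is uncertain. In the other direction, HIST1H2AC (chr6:26124145-26139116), an abundant H2A gene, had 466 and 418 counts with siRNA 1 and siRNA 2 against 311 in NC. Both siRNA libraries lay above NC (0.50 ± 0.25 SE, adjusted p = 0.252 in edgeR). With the GC trend removed, the log2 fold changes with siRNA 1 and siRNA 2 were 0.19 and 0.08 for HIST1H2AC. For HIST3H2A they were -0.44 and -0.51. HIST1H2AG had 71 and 83 counts against 54 in NC, and its siRNA 1 ratio of 1.33 had an interval (0.922 to 1.93) that includes 1.

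H2B held the most counts of any type. HIST1H2BK (ENSG00000197903, chr6:27146418-27146798), an intronless H2B gene whose 381-base model ends at the stop codon, had 450 counts with siRNA 1 and 490 with siRNA 2 against 986 in NC. The siRNA libraries lay close to each other and far under NC, at ratios of 0.462 (0.413 to 0.517) and 0.484 (0.433 to 0.54). In edgeR its log2 fold change was -1.08 ± 0.22 (SE) with an adjusted p of 0.112. It shares 61.4% of its 50-base words with H2BFS, which had 112 and 129 counts in the siRNA libraries against 98 in NC, so its level is uncertain. Summed with H2BFS it had 562 and 619 counts against 1084 in NC, ratios of 0.525 and 0.556.

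HIST2H2BE (chr1:149884459-149886652), whose model runs far past the stem-loop, had 585 and 533 counts with siRNA 1 and siRNA 2 against 416 in NC (0.42 ± 0.24 SE, adjusted p = 0.304 in edgeR). HIST1H2BD had 291 and 286 counts in the siRNA libraries against 208 in NC, again above NC in both. HIST1H2BC was lower in both, at 78 and 92 counts against 126 in NC, with ratios of 0.627 (0.467 to 0.838) and 0.711 (0.538 to 0.938).

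A further 3 H2B genes had at least 50 counts. HIST1H2BG had 87 and 70 counts with siRNA 1 and siRNA 2 against 62 in NC, ratios of 1.42 (1.01 to 2.0) and 1.1 (0.77 to 1.57), the second interval including 1. HIST1H2BJ had 122 and 130 counts in the siRNA libraries against 114 in NC, with intervals that include 1 for both. HIST1H2BN had 71 and 64 counts against 68 in NC, 1 library above and 1 below NC once scaled. HIST2H2BF, with 17 and 26 counts against 47 in NC, shares words with the row HIST2H2BA and is uncertain.

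Of 15 H3 genes, 3 reached 10 counts and none passed the test or had an unadjusted p under 0.05 in edgeR. HIST1H3H had 59 and 53 counts with siRNA 1 and siRNA 2 against 34 in NC, ratios of 1.76 (1.13 to 2.76) and 1.52 (0.969 to 2.41), the second interval including 1. HIST1H3G had 36 and 30 counts against 25 in NC, with intervals that include 1 for both siRNAs (0.852 to 2.53 and 0.664 to 2.07). HIST1H3E had 34 and 21 counts against 14 in NC, ratios of 2.46 (1.29 to 4.96) and 1.46 (0.709 to 3.11). The 12 other H3 genes reached at most 8 counts in a library, and some lay under NC, such as HIST2H3A with 3 and 3 counts against 6 in NC.

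Of the H4 genes, HIST4H4 (chr12:14767999-14771131), the lone member of its cluster, had 133 and 106 counts in the siRNA libraries against 62 in NC, with edgeR giving 0.94 ± 0.37 (SE, log2) and an adjusted p of 0.185. Both siRNA libraries were above NC, siRNA 1 more so (2.17, 1.6 to 2.99) than siRNA 2 (1.67, 1.21 to 2.32). HIST2H4A had 91 and 109 counts against 60 in NC and HIST2H4B 32 and 35 against 44 in NC. This pair shares 97.5% and 97.2% of its words, so the opposite directions are uncertain, and the sum was 123 and 144 counts against 104 in NC (1.2, 0.915 to 1.57, and 1.35, 1.04 to 1.75). HIST1H4H had 84 and 79 counts in the siRNA libraries against 70 in NC.

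Levels can be compared between genes only per length. The deposited FPKM divides each count by the summed length of distinct annotated exons, which counts overlapping exons more than once in 13 members. For HIST1H2AC that length was 4179 bases against 1668 merged bases. On the scale of CPM per kilobase of merged exon, HIST1H2BK was first in every library, at 61.7 with siRNA 1, 68.3 with siRNA 2 and 147 in NC. In the siRNA libraries the next 4 genes, HIST1H2BD, HIST1H1C, HIST1H2AC and HIST2H2BE, lay between 12.7 and 17.6, an order that changed between the siRNA libraries. In NC the next were HIST1H1C at 23.6, HIST2H2AA4 at 14.2 and HIST3H2A at 14.0.

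H2A and H2B genes often lie head to head and share the DNA between their starts. The members formed 11 such pairs with 218 to 330 bases between them, and in 5 pairs both partners reached 10 counts. HIST1H2BC and HIST1H2AC, 218 bases apart, lay on opposite sides of NC: HIST1H2BC had log2 fold changes of -0.66 with siRNA 1 and -0.48 with siRNA 2, HIST1H2AC 0.6 and 0.39. HIST3H2A and HIST3H2BB, 233 bases apart, were both lower, but HIST3H2BB, at 34 and 27 counts in the siRNA libraries against 39 in NC, had intervals that include 1 for both siRNAs (0.541 to 1.44 and 0.397 to 1.13). In some pairs only the H2B partner was well detected: HIST1H2AH, opposite HIST1H2BK, had 1 count with siRNA 1, 3 with siRNA 2 and 0 in NC, and HIST2H2AC, opposite HIST2H2BE, had 4, 5 and 4.

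Base composition moved with these differences. Over the 31 members the mean log2 fold change had a Spearman correlation of -0.5 with transcript GC content, 0.48 with merged exon length and 0.51 with the bases annotated after the coding sequence. These are descriptions over genes of the same 3 libraries, and GC content and exon length were themselves correlated at -0.77. Over 17324 genes of all kinds the correlation with GC content was -0.69. Members under 50% GC (20 genes) had a median of 0.26 and all genes under 50% GC 0.32, while members of at least 50% GC (11 genes) had -0.62 and all such genes -0.51. This split and the next were made once the values were known. Splitting by gene model gave a median of -0.59 for the 10 tested members with at most 300 bases after the coding sequence and 0.2 for the 21 with more. With the GC trend subtracted, these became -0.17 and 0.03, and HIST1H2BK had -0.24 with siRNA 1 and -0.39 with siRNA 2.

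**Figure D4:**
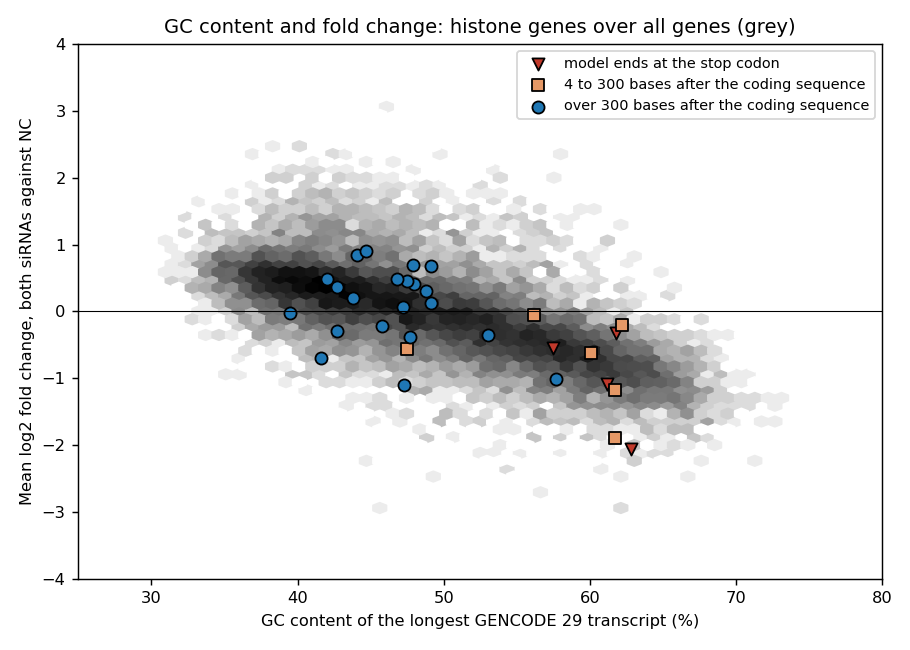
Mean log2 fold change of both siRNAs against NC (log2 CPM, prior count 2) by GC content of the longest GENCODE 29 transcript; grey hexagons are all genes with at least 10 counts, darker for more genes, and symbols are the 31 histone cluster genes by how far their model runs past the coding sequence. Fold changes are lower at higher GC in the histone genes and in all genes (Spearman -0.5 and -0.69), and the models that end at the stop codon lie at high GC.

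Other RNAs without a poly(A) tail and other short genes were set beside the members. Of 4 tested RNAs without a poly(A) tail 0 passed edgeR's adjusted threshold. At an unadjusted p under 0.05 in edgeR 2, RN7SL1 and RN7SL2, were lower, against 14.5% of all genes tested. The 4 had a median GC content of 62.8%, and of 4921 tested genes of at least 55% GC, 2083 were lower by the same rule. RN7SL1 had 46 and 71 counts against 264 in NC, and RN7SL2 226 and 277 against 690 in NC, both RNAs of the signal recognition particle. The whole list summed to 18.5 CPM with siRNA 1, 22.4 CPM with siRNA 2 and 60.9 CPM in NC, with 8 genes at 0. With the GC trend removed, RN7SL1 had log2 fold changes of -1.46 with siRNA 1 and -1.16 with siRNA 2, and RN7SL2 -0.61 with each. Another 183 protein-coding genes with at most 1000 exon bases had a median of -0.38, with 52 of them higher with both siRNAs and 95 lower with both, and a median of 0.06 once the GC trend was removed. The part of library composition in the histone values was not tested.

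Replication-independent histones, which are made throughout the cell cycle and mostly polyadenylated, were split as well. Of 14 tested, 0 passed the adjusted threshold, and at an unadjusted p under 0.05 in edgeR 3 were higher and 3 lower, against 11.5% and 14.5% of all genes tested. H3F3A and H3F3B, which encode H3.3, had 2533 and 1500 counts and 11065 and 9813 counts with siRNA 1 and siRNA 2, against 945 and 6110 in NC. H3F3C had 311 and 370 counts against 196 in NC. H2AFX, whose product is phosphorylated at DNA breaks, had 1239 and 1805 counts against 4105 in NC, and H1FX, a linker variant, 553 and 740 against 1972 in NC. After removal of the GC trend, H2AFX had log2 fold changes of -0.48 with siRNA 1 and -0.3 with siRNA 2, in place of -1.71 and -1.22, and H1FX -0.44 and -0.41, in place of -1.81 and -1.45. The other lower gene was H2AFJ, an H2A variant, with 573 and 641 counts against 892 in NC. H2AFZ, the H2A.Z gene, had 1505 and 2330 counts against 2904 in NC, with an unadjusted p of 0.07 in edgeR. H1F0, the linker histone of resting cells, had 20796 and 17093 counts against 19510 in NC, 1 siRNA library above and 1 below.

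The machinery that makes and handles histones gave no adjusted call. Of 26 genes for histone transcription and 3-prime processing 3 were higher and 6 lower at an unadjusted p under 0.05, against 11.5% and 14.5% of all genes tested, with a median of 0.02. SLBP, which binds the stem-loop, had 3350 and 2899 counts against 2125 in NC (0.55 ± 0.21 SE, adjusted p = 0.183 in edgeR). NPAT, the activator of the histone clusters, had 825 and 781 counts against 760 in NC, CASP8AP2 618 and 574 against 418 in NC, and LSM11, of the U7 particle, 223 and 218 against 197 in NC. CPSF1 had 707 and 939 counts against 1628 in NC, and CPSF2 5499 and 5054 against 3517 in NC, both of the cleavage machinery. With the GC trend removed their log2 fold changes were -0.23 and -0.11 for CPSF1 and 0.15 and 0.08 for CPSF2.

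Of 27 histone chaperone and import genes 5 were higher and 2 lower by the same unadjusted rule, against the same 11.5% and 14.5% of all genes, with a median of 0.11. NAP1L1, a chaperone of H2A and H2B, had 7638 and 7799 counts against 4393 in NC, and TONSL, which reads newly made histones, 271 and 389 against 774 in NC. After removal of the GC trend their log2 fold changes were 0.27 and 0.36 for NAP1L1 and -0.45 and -0.24 for TONSL. Of 26 S-phase genes 2 were higher and 3 lower, set against those shares, with a median of 0.03. RRM2, a ribonucleotide reductase subunit, had 18059 and 14621 counts against 8855 in NC, and CDT1, a replication licensing factor, 608 and 861 against 1465 in NC. Once the GC trend was removed, CDT1 had -0.12 with siRNA 1 and 0.05 with siRNA 2, and RRM2 0.83 and 0.51. Within the span of the HIST1 cluster, 14 other protein-coding genes with 10 counts had a median of 0.24.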

How the data were processed

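Raw read counts per gene, deposited by the authors, and their FPKM values beside them were read for siRNA 1, siRNA 2 and NC. GRCh38, mm8 and Bowtie 0.12.2 appear, without their roles, per the submitters' processing notes. The table's coordinates were identical to GENCODE 29 on GRCh38 for 97.5% of 58039 shared genes and for all 71 members. Information on the counting program, its use of strand and its handling of reads that fit several copies is not given in the sources used here, and near-identical genes are called uncertain. The authors' FPKM matched counts divided by the summed distinct exon length for 60 of the 60 members with counts.

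Counts were tested with edgeR 4.0.16 (R 4.3.3): TMM scaling, filterByExpr, quasi-likelihood test, Benjamini-Hochberg adjustment over 17263 genes, threshold 0.05. The siRNA libraries were taken as replicates of 1 group against 1 NC library, leaving 1 residual degree of freedom. A simulation for this test planted larger changes than any tested member showed, in genes averaging at least 50 counts and without a GC trend. It therefore does not show how the test performs for the members. SE is the absolute log2 fold change over the square root of F. For each siRNA alone, the fold change is log2 CPM minus that of NC (TMM, prior count 2). Ratios of counts carry exact intervals at 95% that cover counting error only, because each sets 1 library against 1 other and holds no spread between replicates. The reads also carry no molecular identifiers, so these intervals may be too narrow even for counting error. DESeq2 1.42.0, limma 3.58.1 on log2 FPKM, other scalings, filters and removal of the GC trend (lowess, fraction 0.3) were alternatives.

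Named members are those with at least 50 counts in a library, with others counted, and some (as H2AFJ among the lists) named for their values. From each fixed list, the genes with the largest and smallest mean fold change and some fixed genes were named. Members and lists were chosen with earlier results of these data known. Promoters came from RefSeq, matched by older symbol, strand and a start within 1000 bases of the member's start, since 5 older symbols are held by several RefSeq genes.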

Additional observations from a re-analysis of the deposited data

How the results depend on the processing

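The 10 genes called by edgeR over the whole table became 567 with DESeq2, 63 at a threshold of 0.1, and 0 without a filter on low counts, with a filter of 1 CPM in every library, with the GC trend as an offset, and with limma on log2 FPKM at pseudocounts of 1 and 0.1. DESeq2 called 1 member where edgeR called 0. The members' median log2 fold change of -0.21 became -0.02 with the GC trend removed and 0.2 over members with at least 50 counts, and ran between -0.12 and 0.02 when either siRNA library was left out. The 4 members beyond 2-fold became 0 with the GC trend removed. Leaving out a siRNA library turns the rule into 2-fold with the other siRNA alone, which held for 5 without siRNA 1 and 8 without siRNA 2. That looser rule can only keep or raise the count, so it does not test the 4. The log2 ratio of summed CPM, -0.29, became -0.19 with TMM-scaled library sizes, -0.77 for summed FPKM and -0.06 without HIST1H2BK, and ran between -0.3 and -0.28 when either siRNA library was left out. Without the most abundant member in NC of each type, an alternative chosen after seeing the data, the log2 ratio of summed CPM for H2B, -0.37, became 0.09 and for H2A, -0.34, became -0.99. H1, H3 and H4 kept their direction. For H4 the gene left out, HIST1H4H, lay closer to NC than the H4 sum, so leaving it out could not turn the direction. The H4 sum without HIST4H4 and HIST2H4A, which lay further above NC, was not taken. Of 17 named members, 16 kept their direction with the GC trend removed, where HIST1H4H went to -0.08, and 16 without siRNA 2, where HIST1H2BN went to 0.08. All 17 kept it with DESeq2 size factors, library totals, a prior count of 0.5, log2 FPKM and without siRNA 1. No paired analysis was possible because NC had 1 library. With 1 residual degree of freedom, and most members under 10 counts, a p that misses the threshold does not show that levels were alike.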

Other observations

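The 20 rows of the table whose symbols begin like the members but that are not annotated as protein coding had 338 counts with siRNA 1, 319 with siRNA 2 and 285 in NC. HIST2H2BC had 285 and 246 counts with siRNA 1 and siRNA 2 against 187 in NC, and HIST2H2BD 27 and 42 against 68 in NC. Both were picked for their values, and no cause was tested.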
